A study of Mus musculus with 42 samples.

Results

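LEF1 binding was compared between wild-type cells (WT) and cells mutant for the 3 genes Cdx1, Cdx2 and Cdx4 (Cdx1/2/4-/-, CdxKO). The comparison rested on 6 immunoprecipitated libraries, 3 of each genotype, out of 42 samples in the series, of which 30 had a peak list. They were chosen by name, as the peak lists for LEF1 at day 3 with CHIR99021 and FGF in WT and in CdxKO. All were differentiated in vitro from the HM1 (129) mouse embryonic stem cell line, and were caudal epiblast-like cells in the paper's terms. The WT cells were the HM1 TetON line, and both mutants were derived from it. The cells were grown with bFGF and LGK974, which blocks secretion of WNT ligands, then also with CHIR99021, which inhibits the kinase GSK3, and were collected at 72 h. Controls and mutants therefore shared every agent. A further 3 LEF1 libraries from T/Bra-/- cells (T/BraKO), grown in the same way, were used for reference. Per the study's methods the triplicates of each condition came from separate experiments, whereas all 9 LEF1 libraries carried the same experiment label, so no batch could be compared. Each genotype was a cell line of its own, and a difference between lines and one due to the deleted genes cannot be told apart. The lists hold no expression values, and loss of the CDX proteins was not checked here.

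LEF1 belongs to the TCF/LEF family, whose HMG-box domain binds DNA at a short recognition sequence and which recruits β-catenin once WNT signalling, or inhibition of GSK3, stabilises it. The CDX proteins are caudal-type homeodomain factors that are switched on by WNT signalling in the caudal epiblast, the progenitors of the trunk and tail, where they promote expression of posterior Hox genes. WNT signalling also switches on its own inhibitors, among them Axin2, Nkd1, Znrf3 and the Dickkopf genes, which serve as a reference set of direct targets.

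The sequence around 8 LEF1 summits is shown first, because the results below turn on which short motifs lie there. They were chosen after their values were seen. Foxb1 (chr9:69668794-69668994) and Hoxd1 (chr2:74760219-74760419) stand for sites bound in all 6 libraries. Dkk4 (chr8:22623693-22623893), Acvr1b (chr15:101182695-101182895), Lama2 (chr10:27013114-27013314) and Hoxb4 (chr11:96319278-96319478) stand for sites that ranked better in WT, and Ubl3 (chr5:148466857-148467057) and Tnfrsf19 (chr14:61056609-61056809) for sites that ranked better in CdxKO. Each name is that of the nearest gene. Each run is the summit base with 100 bases on either side, on the forward strand of the mouse genome build mm10 (GRCm38), 5′ to 3′, and none overlapped an annotated exon. Capitals mark a TCF/LEF match (CTTTGAA or CTTTGAT) or a CDX match (CAATAAA or CCATAAA, or else TAATAAA or TCATAAA), and a match on the reverse strand appears as its reverse complement.
Foxb1: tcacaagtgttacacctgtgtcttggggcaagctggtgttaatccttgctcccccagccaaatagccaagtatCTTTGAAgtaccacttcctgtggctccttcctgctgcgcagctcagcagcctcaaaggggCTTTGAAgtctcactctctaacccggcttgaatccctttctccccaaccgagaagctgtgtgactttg
Hoxd1: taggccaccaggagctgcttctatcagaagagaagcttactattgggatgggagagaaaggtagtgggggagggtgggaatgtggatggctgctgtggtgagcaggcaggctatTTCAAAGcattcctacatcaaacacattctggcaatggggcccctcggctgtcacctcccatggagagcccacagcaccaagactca
Dkk4: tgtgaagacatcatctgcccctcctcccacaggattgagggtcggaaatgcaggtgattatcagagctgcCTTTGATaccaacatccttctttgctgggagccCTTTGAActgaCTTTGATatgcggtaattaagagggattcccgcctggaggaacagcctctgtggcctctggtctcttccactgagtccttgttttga
Acvr1b: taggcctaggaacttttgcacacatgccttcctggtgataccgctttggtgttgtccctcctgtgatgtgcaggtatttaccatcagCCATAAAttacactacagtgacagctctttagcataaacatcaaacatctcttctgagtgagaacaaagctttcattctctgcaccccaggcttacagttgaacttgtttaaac
Lama2: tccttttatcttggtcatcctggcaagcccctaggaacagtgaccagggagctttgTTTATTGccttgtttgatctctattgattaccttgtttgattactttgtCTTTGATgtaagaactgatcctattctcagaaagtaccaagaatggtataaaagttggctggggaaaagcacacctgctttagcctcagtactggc
Hoxb4: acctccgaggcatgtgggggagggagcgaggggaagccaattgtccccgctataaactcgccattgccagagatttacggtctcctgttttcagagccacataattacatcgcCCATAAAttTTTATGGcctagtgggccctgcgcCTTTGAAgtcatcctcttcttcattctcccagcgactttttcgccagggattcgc
Ubl3: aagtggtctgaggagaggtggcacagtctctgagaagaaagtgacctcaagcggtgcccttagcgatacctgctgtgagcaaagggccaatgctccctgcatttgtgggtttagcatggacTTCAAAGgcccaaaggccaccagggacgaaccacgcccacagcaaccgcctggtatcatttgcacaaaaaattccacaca
Tnfrsf19: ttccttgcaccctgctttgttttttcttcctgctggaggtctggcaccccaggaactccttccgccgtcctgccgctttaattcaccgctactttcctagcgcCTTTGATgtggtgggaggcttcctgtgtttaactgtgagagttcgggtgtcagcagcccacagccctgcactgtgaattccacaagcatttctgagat

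The Dkk4 window held 3 TCF/LEF matches and no CDX match, and the Foxb1 window 2 TCF/LEF matches. The Acvr1b window held 1 CDX match and no TCF/LEF match. Both kinds were present at Lama2, with 1 of each, and at Hoxb4, with 1 TCF/LEF and 2 CDX matches. The Ubl3 and Tnfrsf19 windows each held 1 TCF/LEF match and no CDX match. A match is a run of letters and was not tested as a binding site.

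Each list gives, for every peak, its fold enrichment over the local background estimated by the peak caller and the −log10 of its q-value, by which the peaks were ranked. The lists held 612343, 723070 and 175430 peaks in WT replicates 1 to 3 and 607176, 759597 and 462059 in CdxKO replicates 1 to 3. Peak number therefore varied more among WT replicates than between genotypes. At rank 1000 the −log10 q was 22.6, 19.8 and 13.0 in WT and 27.2, 22.3 and 17.9 in CdxKO, and the median fold enrichment of the 1000 best peaks was 13.7 ± 1.71 in WT and 16.0 ± 1.91 in CdxKO (SD, n = 3; two-sided exact permutation test, p = 0.3). WT replicate 3 had the shortest list and the lowest values of the 6. A TCF/LEF match lay within 100 bp of 64.8%, 47.8% and 62.0% of the 1000 best summits in WT and of 67.2%, 64.7% and 63.7% in CdxKO, against 6.60% to 8.10% of the same windows moved by 1000 bp. The best peaks of all 6 libraries were thus rich in the recognition sequence of the labelled factor, least so in WT replicate 2. The lists carry no read counts, so the depth behind a single peak is unknown.

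The first question was whether libraries of 1 genotype bound more of the same sites than libraries of different genotypes. Overlapping peaks were merged into regions, and the similarity of 2 lists was the Jaccard index, the number of shared regions divided by the number in either list. Among the 1000 best peaks, the index was 0.178 to 0.242 between WT libraries, 0.265 to 0.288 between CdxKO libraries and 0.195 to 0.252 between a WT and a CdxKO library. Pairs of CdxKO libraries were the most alike, and pairs of WT libraries were, on average, less alike than pairs across genotypes (means of 0.211 and 0.234). The mean within genotypes exceeded that between them by 0.0110 (one-sided exact permutation test over 10 splits, p = 0.1, the smallest the design allows). At the 5000 and 20000 best peaks the excess was 0.00465 and 0.00208, each with p = 0.1 in the same exact permutation test (adjusted p = 0.1 over the 3 lengths). With 1 library left out and the genotype means weighted equally, a weighting chosen after seeing the data, the excess stayed above 0, at 0.00133 to 0.0169 for 1000, and it was lowest without WT replicate 3 at each length (0.00133, 0.00116 and 0.00144). In the full lists it was −0.00101 (exact permutation test, p = 0.7).

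**Figure D1:**
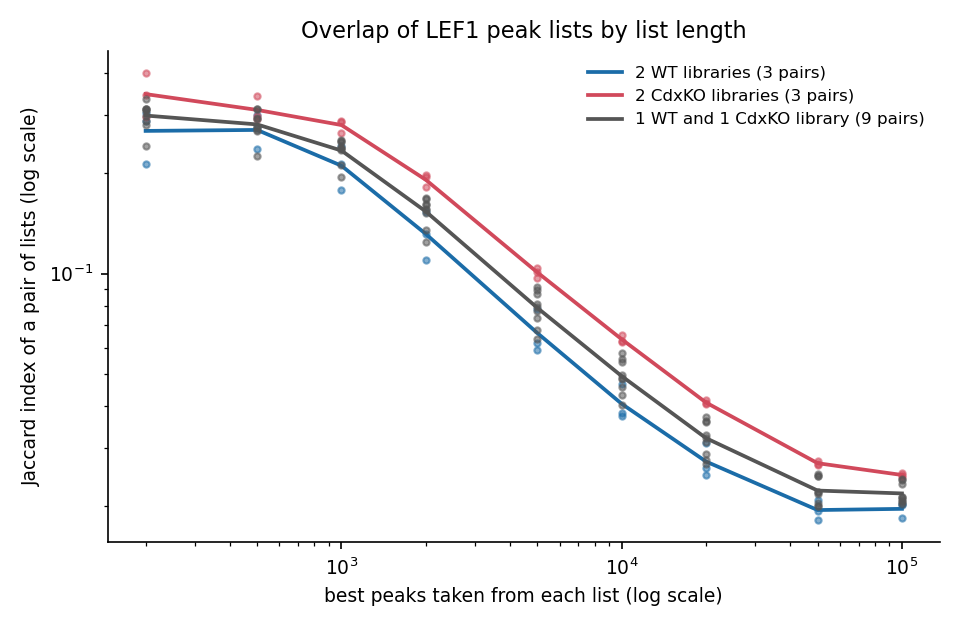
Jaccard index of each pair of LEF1 lists (points) and its mean by kind of pair (lines) against the number of best peaks taken from each list, both on log scales. The mean of CdxKO pairs is the highest and that of WT pairs the lowest at each length, and all fall steeply beyond the 1000 best peaks, from means of 0.211 to 0.279 at 1000 to 0.0273 to 0.0410 at 20000.

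Of 3274 regions among the 1000 best peaks of any of the 6 libraries, 154 (4.7%) were held by all 6. This number was 268 of 24518 (1.09%) among the 5000 best and 417 of 109826 (0.38%) among the 20000 best. Regions called in all 3 WT and in no CdxKO library numbered 16 (0.489%), 17 (0.0693%) and 38 (0.0346%) at these lengths, and regions called in all 3 CdxKO and in no WT library numbered 18 (0.55%), 65 (0.265%) and 108 (0.0983%). Few regions were thus held by all libraries, and among the 20000 best only 2248 were held by at least 3 of the 6. Counts of differing regions moved with nearly every library. At the 1000 best peaks there were 40, 52 and 34 WT-only regions without WT replicate 1, 2 or 3, and 25, 19 and 22 without CdxKO replicate 1, 2 or 3. The CdxKO-only regions then numbered 35, 33 and 35 without WT replicate 1, 2 or 3, and 63, 62 and 54 without CdxKO replicate 1, 2 or 3.

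The 10 best-ranked regions held by all 6 libraries were the same at the 3 lengths and did not separate the genotypes. The first lay in an intron of Fam227b and was ranked 1 or 2 in every library, with a fold enrichment of 124, 219 and 94.0 in WT and 179, 194 and 100.2 in CdxKO. The second lay in an intron of Ybx3, which encodes a cold-shock domain protein, at ranks 9, 2 and 4 in WT and 1, 1 and 5 in CdxKO. The third lay 92046 bp from the start of Foxb1, a forkhead factor gene, at ranks 1, 12 and 2 in WT and 7, 6 and 3 in CdxKO. The other 7 had as nearest genes Mapkap1, a subunit of the kinase complex mTORC2, Acacb, an acetyl-CoA carboxylase, 2510009E07Rik, Sepsecs, an enzyme of selenocysteine tRNA synthesis, Aoc1, an amine oxidase, Plxdc2, and Nectin1, a cell adhesion protein, all at ranks 3 to 40. Of these 10 summits, 6 had a TCF/LEF match, and those at Fam227b, Ybx3, Acacb and Sepsecs had none. Over the 154 regions, 113 (73.4%) had a TCF/LEF match and 16 (10.4%) were within 1000 bp of a transcription start site, and 95 were also among the 1000 best of all 3 T/BraKO libraries.

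Which developmental genes carried shared LEF1 sites was then counted, taking each gene body with 10000 bp on either side. Among the 1000 best peaks all 6 libraries had a peak at 148 of 21938 protein-coding genes (0.675%), and at 5 of 21 WNT feedback and target genes. These were Sp5, a zinc-finger gene induced by WNT, the inhibitors Axin2, Nkd1 and Znrf3, and Tnfrsf19, a receptor of the tumour necrosis factor family. The Axin2 summit, 457 bp into the gene, had a fold enrichment of 13.8, 16.7 and 8.11 in WT and 23.5, 21.3 and 10.1 in CdxKO. The Nkd1 summit lay 82790 bp from the start of the gene, with 20.2, 27.5 and 14.4 in WT and 23.8, 18.2 and 19.9 in CdxKO. The Znrf3 summit lay in an intron, with 18.9, 21.4 and 17.1 in WT and 21.9, 17.3 and 31.7 in CdxKO. At each of these 3 sites the values of the genotypes overlapped. Sp5 had a summit at its start with 31.1, 12.6 and 17.5 in WT and 28.9, 20.9 and 22.3 in CdxKO, which overlapped as well.

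The same count over the other gene lists, at the 5000 best peaks, stood beside 306 of all protein-coding genes (1.39%) with a peak in all 6 libraries. It was 5 of 14 caudal epiblast genes (Cdx1, Cdx2, Evx1, Wnt3a and Wnt5b) and 2 of 5 genes of TCF/LEF factors and β-catenin (Tcf7l1 and Tcf7l2). It was 2 of 39 Hox genes (Hoxb1 and Hoxd1), 1 of 14 paraxial mesoderm genes (Ripply2, at a summit nearer to Cyb5r4), 1 of 16 neural genes (Gbx2) and 1 of 17 FGF pathway genes (Fgfr2, whose annotated gene model spans the neighbouring Lhpp, the gene nearest to the summit). None of the 12 mesendoderm, 19 pluripotency, 13 BMP pathway and Id, 11 retinoic acid pathway and 10 EMT genes had a peak in all 6, and 3 of 1466 olfactory and vomeronasal receptor genes did. At 20000, where 1542 protein-coding genes (7.03%) did, the counts were 8 of 39 Hox genes, 7 of 21 WNT genes and 13 of 1466 receptor genes. The Gbx2 site, 4866 bp upstream of this homeobox gene, was ranked 8, 33 and 29 in WT and 22, 18 and 9 in CdxKO. The Hoxd1 site was as even, at 49, 75 and 49 in WT and 66, 75 and 53 in CdxKO. At Tcf7l1, which encodes a TCF factor that represses targets, the fold enrichment ran from 17.7 to 115 in WT and from 35.1 to 111 in CdxKO, so that replicates of WT differed more than the genotypes.

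Among the 1000 best peaks, 15 protein-coding genes (0.0684%) had a peak in all 3 WT and in no CdxKO library, and 7 (0.0319%) the reverse. With 1 library left out these counts were 17 to 40 and 16 to 50. List members on the WT side were Dkk4, Wnt3a, Acvr1b, and Hoxb3 and Hoxb4, whose peaks lay at shared positions but not at the same site in all 3 libraries, and no member of the developmental lists was on the CdxKO side. At the 5000 best, with 54 (0.246%) and 52 (0.237%) genes, Dkk4, Acvr1b, Hoxb4 and Spred2 were on the WT side and Notum, Mixl1 and Pax3 on the CdxKO side. At the 20000 best, with 186 (0.848%) and 177 (0.807%), Hoxd8, Hoxd9, Foxc2, Tdgf1, Ctnnb1, Nodal and Neurog2 were on the WT side and Notum and Pax6 on the CdxKO side. For a list gene, a call needs only its best peak, so different sites of 1 gene could answer in different libraries. Neighbouring genes, as in the Hox clusters, can also be called through the same peak.

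The differing regions of the 1000 best peaks are given in full, although most were not fixed by the rule for naming genes. The 16 regions of the WT-only group were led by a site in an intron of 2010111I01Rik, ranked 59, 226 and 47 in WT and 2780, 7334 and 54452 in CdxKO. The next lay in an intron of Nt5e, the ectonucleotidase CD73, at 276, 172 and 45 in WT and 1030, 1437 and 3530 in CdxKO, so that its CdxKO peaks were just outside the limit. The site in an intron of Acvr1b, an activin receptor, was ranked 227, 197 and 140 in WT, was absent from the list of CdxKO replicate 1 and stood at 629958 and 144101 in the others. Its ranks in T/BraKO were 3252, 1415 and 132. Of the 16 regions, 11 had a peak somewhere in the full lists of all 3 CdxKO libraries, and 3 (Nt5e, Fam222a and Wbp2) were among the 1000 best of all 3 T/BraKO libraries. The remaining nearest genes were Ltn1, Wnt3a, Dkk4, Zfp354a, Dysf, Zfpm2, Mycn, a MYC family factor, Slit3, a guidance ligand, Phf3, Arhgap33 and Nkd1. Some of them were far from the site, as Dysf (99957 bp), Zfpm2 (128194 bp), Mycn (147707 bp) and Phf3 (387070 bp). The Nkd1 site of this group lay 25985 bp upstream and was not the site shared by all 6 libraries.

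The 18 regions of the CdxKO-only group at the 1000 best peaks were led by a site near Ubl3, ranked 219, 178 and 221 in CdxKO and 2615, 2660 and 34705 in WT. The next lay 8265 bp upstream of Khdrbs1, an RNA-binding protein gene, at 197, 400 and 207 in CdxKO and 5019, 3754 and 42157 in WT. The site near Elavl2, a neuronal RNA-binding protein gene, was ranked 467, 118 and 300 in CdxKO and 2613, 1007 and 1210 in WT, just outside the limit. Here too most sites had some peak in the other genotype: 13 of the 18 had one in the full lists of all 3 WT libraries. Such peaks can be weak, as at Dync2h1 in WT replicate 1 (rank 550626, fold enrichment 2.68), and do not show that binding was kept. The site 156960 bp upstream of Mme, which encodes the peptidase neprilysin, had the fewest peaks in the full WT lists, with none in replicates 1 and 2. The other nearest genes were Gabrb2, Vmn1r198, Astn2, Pon3, Aff1, Tns1, Slc26a2, Abcb5, Dync2h1, Crb2, Clcn6, Xpnpep1, Neu2 and Zfp709, and the sites at Gabrb2 and Clcn6 were among the 1000 best of all 3 T/BraKO libraries.

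**Figure D2:**
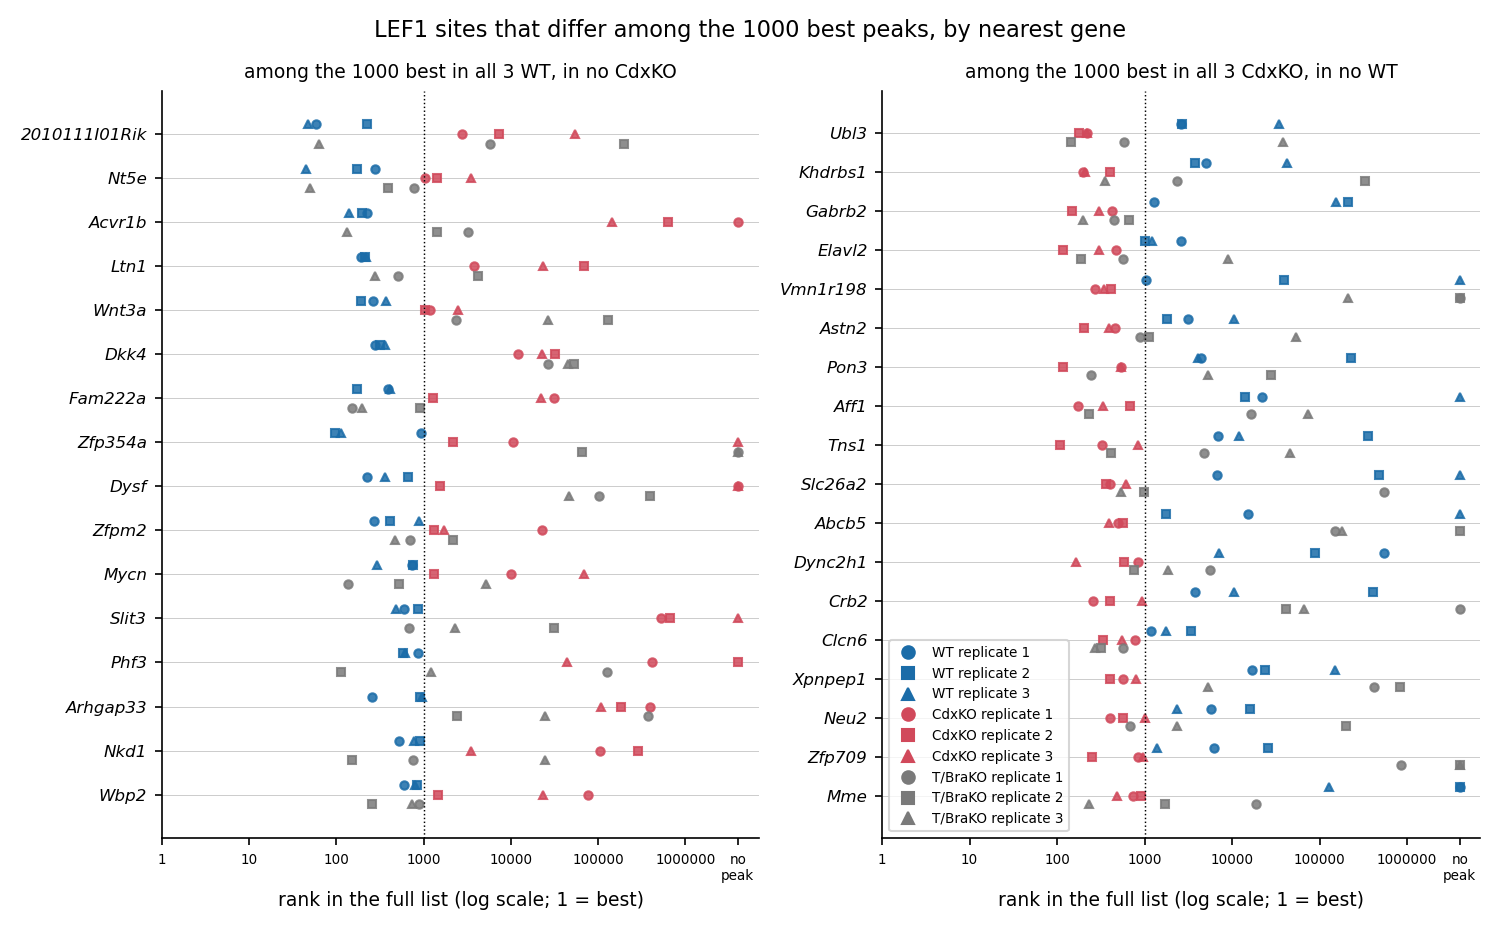
Rank in the full list (log scale, 1 is the best) of the best LEF1 peak at the 16 WT-only regions (left) and the 18 CdxKO-only regions (right) of the 1000 best peaks, 1 row per region named by its nearest gene, 1 point per library, and the dotted line at rank 1000. Most points of the other genotype lie between ranks 1000 and 100000, and T/BraKO points fall on both sides of the line.

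At longer lists the same rule requires the other genotype to rank beyond a longer limit, so the sites it named were further apart by construction. The 10 best-ranked WT-only regions among the 20000 best peaks had as nearest genes Acvr1b, Slit3, Phf3, Arhgap33, Col14a1, a collagen gene, Lama2, a laminin subunit gene, Fam161a, Fbxw4, Spred2, an inhibitor of RAS to ERK signalling, and Mitf, a melanocyte transcription factor gene. The Slit3 site was ranked 594, 858 and 482 in WT and 523605 and 673282 in CdxKO replicates 1 and 2, with no peak in replicate 3. The Fbxw4 and Mitf sites had no peak in any CdxKO list and the Spred2 site had 1, at rank 186827. Of these 10 sites, 7 had a CDX match (Acvr1b, Slit3, Lama2, Fam161a, Fbxw4, Spred2 and Mitf). The 10 best-ranked CdxKO-only regions had as nearest genes Mme, Adamts18, Sox11, Camk1d, Gbp2, Cdk18, Map2k3, Gm9495, Plk2 and Gpr132, and 0 of these regions had a CDX match. Here too a nearest gene could be far away, as Sox11 at 204850 bp. The 17 WT-only regions among the 5000 best added Dkk4, Sox5 and Akt2 to the best-ranked names, and the 65 CdxKO-only regions added Cuedc1, Rab11fip1 and Tnfrsf19.

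Motifs at the summit took no part in the ranking, and their shares were compared over libraries. Within the 1000 best peaks a CDX match lay at 12.4%, 13.3% and 12.2% of WT summits and at 8.4%, 8.0% and 8.0% of CdxKO summits. All WT libraries were above all CdxKO libraries, with means of 12.6% ± 0.586 and 8.13% ± 0.231 (SD, n = 3), a difference of 4.50 percentage points (two-sided exact permutation test, p = 0.1, the smallest 3 against 3 libraries allow; adjusted p = 0.15 over 12 tests). The difference was 2.16 points among the 5000 best (13.4% ± 0.910 and 11.3% ± 0.223, p = 0.1, exact test). It was 1.35 points among the 20000 best and −0.0866 over the full lists. In both genotypes these shares were below those of the moved windows, which were 16.3% ± 0.425 in WT and 17.6% ± 0.550 in CdxKO at the 1000 best.

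With the T/BraKO libraries, which carry the Cdx genes, added to WT, an exact permutation test of 6 against 3 libraries could reach p = 0.0119. The CDX share of the 1000 best summits was then 11.8% ± 1.18 (SD, n = 6) against 8.13% ± 0.231 (n = 3), and the difference of 3.63 points passed (two-sided exact permutation test over 84 splits, p = 0.0119, adjusted p = 0.0204 over 12 tests). It passed in the same way at 5000 (2.04 points) and at 20000 (1.13 points). All 6 libraries with Cdx genes were above all 3 without at each length. SOX matches (CCATTGT or CCTTTGT, which cannot coincide with a TCF/LEF match) were more frequent in CdxKO, by 2.03 points at 1000, 1.07 at 5000 and 0.474 at 20000 (each exact p = 0.0119, adjusted p = 0.0204), with 14.8% ± 0.404 of the 1000 best CdxKO summits against 12.7% ± 0.665. TCF/LEF matches were more frequent in CdxKO by 8.18 points at 5000 and 4.13 points at 20000 (adjusted p = 0.0317 for both, exact test), and by 12.4 points at 1000, which did not pass (adjusted p = 0.0857, exact test). Against WT alone the TCF/LEF differences were smaller, at 7.0, 6.4 and 3.3 points at the 3 lengths, and none passed (adjusted p = 0.36, 0.15 and 0.267, exact test). At 5000 the TCF/LEF shares were 34.5%, 25.0% and 29.1% in WT and 22.3%, 28.8% and 26.8% in T/BraKO. T-box matches (AGGTGTGA) differed at 20000 only, by 0.188 points (1.15% ± 0.0770 in CdxKO, 0.957% ± 0.0582 in the others; adjusted p = 0.0204, exact test). Without 1 CdxKO library only 28 splits remain and the exact test cannot go below p = 0.0357 before adjustment. Leaving out CdxKO replicate 1 or 2 then ended the CDX and SOX calls at every length and the T-box call, while the differences at 1000 were 3.77 and 3.57 points for CDX and −2.07 and −1.82 for SOX, and −0.146 and −0.221 for T-box at 20000. The CDX call was also lost at 1000 without WT replicate 3 (3.55 points) or T/BraKO replicate 1 (3.59 points), and at 20000 without T/BraKO replicate 3 (1.17 points). Both TCF/LEF calls were lost on leaving out any library other than WT replicate 1 and CdxKO replicate 3.

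By rank, the TCF/LEF share fell in every library, from 47.5% to 77.5% over ranks 1 to 200 to 12.7% to 15.9% over ranks 10001 to 20000. The CDX share of the 200 best peaks was 12.5%, 10.5% and 12% in WT and 8.0%, 7.5% and 7.5% in CdxKO. The genotypes did not overlap in CDX share in any of the first 4 rank classes, up to rank 2000, nor over ranks 5001 to 10000 (14.5% to 15.2% in WT, 13.1% to 13.9% in CdxKO). They overlapped over ranks 2001 to 5000, where the highest CdxKO library (13.2%) was above the lowest WT library (12.9%), and over ranks 10001 to 20000. In β-catenin libraries of the same genotypes the difference in CDX share was 5.70, 7.11 and 4.43 points at the 3 list lengths. The LEF1 difference minus the β-catenin difference was −1.20, −4.95 and −3.08 points, and none of these passed (exact permutation of genotype within factor over 400 assignments, adjusted p = 0.695, 0.233 and 0.233).

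**Figure D3:**
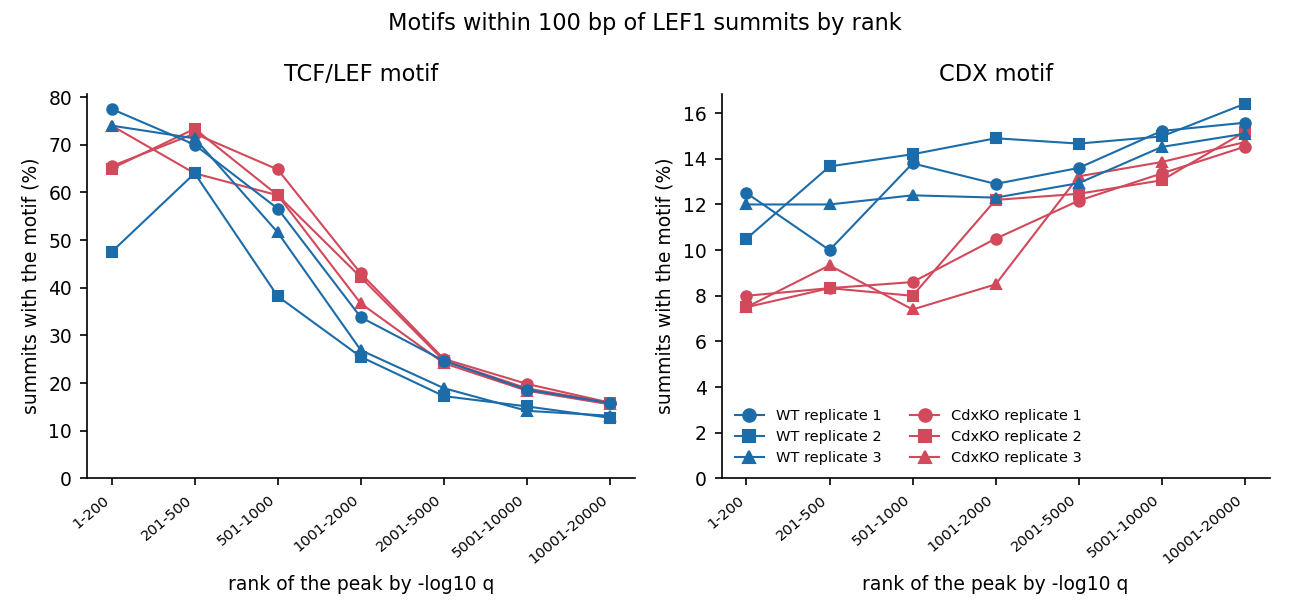
Percentage of LEF1 summits with a TCF/LEF match (left) and a CDX match (right) within 100 bp, by class of rank from the best 200 to ranks 10001 to 20000, 1 line per library. TCF/LEF shares fall from up to 77.5% to at most 15.9% in both genotypes, and CDX shares of the 3 WT libraries lie above those of the 3 CdxKO libraries up to rank 2000.

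By region, CDX matches were most frequent in the WT-only group at each length. A CDX match was present at 5 of 16 WT-only regions, 18 of 154 shared regions and 0 of 18 CdxKO-only regions of the 1000 best (31.2%, 11.7% and 0.0%, with Wilson 95% intervals of 14.2% to 55.6%, 7.52% to 17.7% and 0.0% to 17.6%, which cover counting error only). At the 5000 best it was present at 8 of 17, 26 of 268 and 1 of 65. At the 20000 best it was present at 17 of 38, 34 of 417 and 6 of 108. A TCF/LEF match was present at 13 of 16, 113 of 154 and 16 of 18 regions of the 1000 best, and at 21 of 38, 315 of 417 and 70 of 108 of the 20000 best. Of the 17 WT-only regions with a CDX match at 20000, 10 also had a TCF/LEF match. Regions are not replicates, and no test was made of these counts.

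Fold enrichment was then compared at every LEF1 region that all 6 full lists could score. Of 2248 regions among the 20000 best peaks of at least 3 libraries of either genotype, 1300 had a peak in all 6 full lists and were tested with limma on log2 fold enrichment centred on each library's median. None changed at an adjusted p under 0.05 (0.0%), the smallest adjusted p being 0.171 (limma, Benjamini-Hochberg over 1300). At an unadjusted p under 0.05 there were 83 (6.38%), of which 35 were higher and 48 lower in CdxKO, where 65 would be expected with no difference at all. The balance of directions depended on the centring. Without it, 96 regions were at an unadjusted p under 0.05 (limma), of which 78 were higher in CdxKO. The median log2 difference, CdxKO minus WT, was −0.026 with centring and 0.249 without. The median standard error of a log2 difference was 0.48, and in data simulated on these regions 9% of log2 changes of 1 and 71% of log2 changes of 2 were recovered, so that changes of the smaller size were mostly not detectable at this n. Regions without a peak in 1 of the full lists, such as those at Acvr1b and Mme, could not be scored. All 3 WT values were above all 3 CdxKO values at 83 regions (6.38%) and below them at 74 (5.69%). By rank, these numbers were 55 (4.23%) and 102 (7.85%).

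The smallest p belonged to the Lama2 site, which had a fold enrichment of 11.1, 13.0 and 20.6 in WT and 3.47, 3.71 and 5.09 in CdxKO (log2 difference −2.11 ± 0.48 SE, adjusted p = 0.171, limma). This site, like those at Arhgap33 and Mad1l1, was among the 20000 best peaks of the 3 WT libraries alone, and so entered the test only through the genotype in which it was high. The site at 2010111I01Rik had 34.3, 20.1 and 27.2 in WT and 11.7, 9.33 and 6.23 in CdxKO (log2 difference −1.87). The site 413 bp upstream of Arhgap33 had 20.3, 13.0 and 9.87 in WT and 3.87, 4.93 and 5.20 in CdxKO (−1.85). The other lower sites were those near Bdh1 (−1.93) and Mad1l1 (−1.86). The smallest p among higher sites belonged to Map2k3, a MAP kinase kinase gene, with 3.78, 3.77 and 3.31 in WT and 14.1, 13.0 and 9.42 in CdxKO (log2 difference 1.46 ± 0.44 SE, adjusted p = 0.430, limma). The Map2k3 and Adamts18 sites entered only through the 3 CdxKO libraries. Map2k3 was followed by Gm49358 (1.52), Adamts18 (1.46), Tns1 (1.43) and Ubl3 (1.30). A CDX match was present at 3 of the 5 lower sites (Lama2, 2010111I01Rik and Bdh1) and at 0 of the 5 higher ones. These sites were picked by their p, and some entered through 1 genotype only, so the counts do not test the motif. The 118 tested regions with a CDX match had a median log2 difference of −0.14, against −0.02 in the 1182 without. In each WT library the median centred value of regions with a match was above that of the others, by 0.04, 0.06 and 0.04 log2 units, and in each CdxKO library it was below, by −0.07, −0.09 and −0.12.

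The deleted genes and genes of the caudal epiblast were looked at next. A difference without overlap was found at the Cdx1 promoter, where the summit 108 bp upstream of the start was ranked 61, 52 and 38 in WT and 355, 852 and 568 in CdxKO. Its fold enrichment was 35.4, 36.6 and 33.2 in WT and 20.2, 14.3 and 12.6 in CdxKO. In T/BraKO it was 8.89, 21.6 and 20.2, at ranks of 14840, 173 and 122, so that WT stood apart from both mutants. The WT and CdxKO values did not overlap, and the site remained among the 1000 best peaks of every WT and CdxKO library. WT separated from CdxKO in this direction at 6.38% of the tested regions by centred fold enrichment and at 4.23% by rank. A second site in a Cdx1 intron had ranks of 305, 675 and 465 in WT and 30498, 2070 and 158 in CdxKO, which overlapped. The intronic site of Cdx2, the intestinal and caudal homeobox gene, also overlapped between genotypes, with 15.1, 10.1 and 7.93 in WT and 13.7, 15.4 and 16.9 in CdxKO. Cdx4 had no peak among the 5000 best of any WT library and 1 at rank 3123 in CdxKO replicate 1.

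Secreted regulators of WNT signalling came next. The site 250 bp upstream of Dkk4, a secreted WNT antagonist, was ranked 281, 315 and 359 in WT and 12164, 32252 and 22978 in CdxKO. Its ranks in T/BraKO were 26943, 52748 and 45014, so that the 3 WT libraries stood apart from the other 6 LEF1 libraries. The fold enrichment at Dkk4 was 17.5, 17.7 and 13.6 in WT and 9.13, 7.41 and 6.86 in CdxKO. The site 46768 bp from the start of Wnt3a, the ligand that maintains the caudal progenitors, had 17.1, 20.3 and 12.1 in WT and 12.8, 12.3 and 7.55 in CdxKO, which overlapped in CdxKO replicates 1 and 2 although the ranks did not. Its ranks were 266, 190 and 371 in WT against 1181, 1035 and 2495 in CdxKO. In T/BraKO they were 2340, 129433 and 26651, so that WT stood apart from both mutants by rank here as well. Notum, which encodes a secreted enzyme that inactivates WNT ligands, had its best peak at ranks 24788, 40186 and 108591 in WT and 2940, 1669 and 3329 in CdxKO, but the CdxKO replicate 2 summit lay 5987 bp upstream and those of replicates 1 and 3 within 44 bp of the start. The genotypes overlapped at the promoter site of Tnfrsf19, with ranks of 98, 792 and 1227 in WT and 534, 155 and 691 in CdxKO. The site 10219 bp upstream of Tnfrsf19 was ranked 24671 and 14961 in WT replicates 1 and 2 and stood at 599, 213 and 1422 in CdxKO. It had no peak in WT replicate 3, whose list was the shortest.

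Among Hox genes the site in the intron of Hoxb4, 1111 bp from the start, was ranked 319, 645 and 4101 in WT and 74999 and 682552 in CdxKO, with no peak in CdxKO replicate 3. Its fold enrichment was 16.1, 13.5 and 7.26 in WT and 4.90 and 2.77 in CdxKO. The best peak near Hoxb4 in WT replicates 1 and 3 was another, at −1749 and −1724 bp from the start and ranks of 141 and 137. In T/BraKO the best peak lay at −1745, −1590 and −1756 bp and was ranked 435, 139 and 238. The best CdxKO peaks near Hoxb4 lay elsewhere, at ranks 34273, 14125 and 23177. The promoter site of Hoxb1, 184 bp upstream, was high in both, with 27.9, 12.8 and 34.2 in WT and 31.8, 40.7 and 16.5 in CdxKO. Of the 3 more posterior Hox genes named here, Hoxb8 and Hoxc9 had a peak among the 5000 best in 1 of 6 libraries, and Hoxb9 in 3 of 6, with ranks of 188 and 778 in CdxKO replicates 1 and 3. The number of the 39 Hox genes with a peak among the 1000 best was 17, 8 and 6 in WT and 5, 6 and 5 in CdxKO, and among the 20000 best 29, 22 and 29 in WT and 23, 20 and 16 in CdxKO. Hox genes lie close together, so 1 peak can count for several of them. The WT replicate 1 peak at rank 925, for example, counted for both Hoxb8 and Hoxb9. These are thus not counts of separate sites, and the share of all genes is not a like comparison. Over all protein-coding genes the share with a peak was 3.15% to 3.47% at 1000 and 38.0% to 40.8% at 20000, so that CdxKO replicate 3, with 41.0% of Hox genes at 20000, was near the share of all genes. At 1000, WT replicate 1 alone stood apart, and at 20000 WT replicate 2 was below CdxKO replicate 1.

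Signalling and mesoderm genes gave sites on both sides. Etv4, an ETS factor gene downstream of FGF signalling, had an intronic site at ranks 330, 1379 and 1776 in CdxKO and at 34724 and 9179 in WT, with no peak in WT replicate 3. Near Fgf17, in an intron of Dmtn, the ranks were 3758, 668 and 4643 in CdxKO and 5575 and 43294 in WT, again with no peak in replicate 3. The list of WT replicate 3 was the shortest, so a missing peak there says less than in another library. Ripply2, a repressor gene of somite segmentation, had a site 6310 bp from its start, past its end and nearer to Cyb5r4. This site was ranked 392, 515 and 464 in WT and 834, 610 and 628 in CdxKO, which did not overlap although all 6 were among the 1000 best. The fold enrichment at Ripply2 did overlap, at 16.9, 14.8 and 12.8 in WT and 14.8, 13.0 and 11.2 in CdxKO. Msgn1, a presomitic mesoderm factor gene, had its promoter site at 3348, 498 and 498 in WT and 1599, 170497 and 335594 in CdxKO, which overlapped through CdxKO replicate 1. Brachyury (T), which marks the primitive streak, had a peak among the 5000 best in 1 of 3 WT and 2 of 3 CdxKO libraries. For Tbx6, a T-box factor gene of the presomitic mesoderm, this was 0 and 2 of 3 libraries, and for the caudal ligand gene Fgf8 0 and 1. For the progenitor factor genes Nkx1-2 and Sox2 it was 1 and 1, for the pluripotency gene Pou5f1 2 and 2, for Cyp26a1, which degrades retinoic acid, 0 and 0, for the Hox cofactor gene Meis3 1 and 0, and for Lef1 itself 1 and 3. The best ranks of WT and CdxKO overlapped at each of these 9 genes. These counts leave out a site 12674 bp upstream of T, in an intron of T2, which lay beyond the 10000 bp flank. It was one of the 38 WT-only regions (0.0346%) of the 20000 best peaks. Its ranks were 1139, 3251 and 6339 in WT and 106531 and 20958 in CdxKO replicates 1 and 2, with no peak in replicate 3. In T/BraKO they were 125749, 354073 and 169577.

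**Figure D4:**
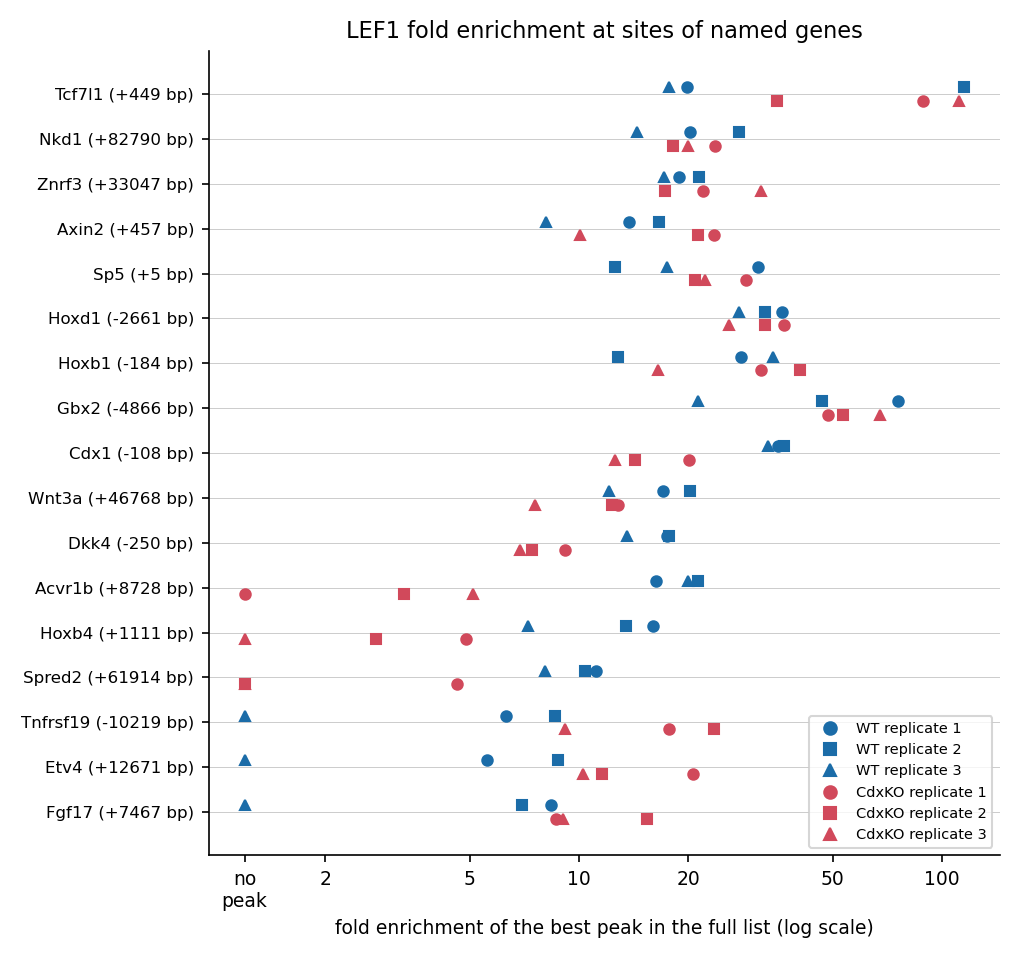
Fold enrichment (log scale) of the best LEF1 peak at sites of named genes, with the distance of the summit from the gene's start in brackets, 1 point per library. WT and CdxKO points mix in the upper rows, from Tcf7l1 to Gbx2, separate at Cdx1 (33.2 to 36.6 in WT, 12.6 to 20.2 in CdxKO), Dkk4 and Acvr1b, and lie the other way round at Tnfrsf19 and Etv4.

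Libraries of other factors, which took no part in choosing the regions, were read at the differing LEF1 sites. Of the 38 WT-only regions at 20000, 94.7%, 84.2% and 78.9% held one of the 20000 best β-catenin peaks in WT and 65.8%, 57.9% and 63.2% did in CdxKO. The means of 86.0% ± 8.04 and 62.3% ± 4.02 (SD, n = 3) differed by 23.7 points (two-sided exact permutation test, p = 0.1, adjusted p = 0.15 over 6 tests), and with T/BraKO added to WT by 21.9 points (exact p = 0.0119, adjusted p = 0.0714). At the 108 CdxKO-only regions the β-catenin share was 74.1% ± 4.63 in WT and 81.8% ± 1.41 in CdxKO (exact p = 0.1, adjusted p = 0.15), and at the 417 shared regions 97.6% ± 1.44 and 98.6% ± 0.366 (exact p = 0.4). β-catenin was thus present at nearly all shared sites in both genotypes, and its lists leaned to the same side as the LEF1 lists at the differing sites, without passing the adjusted threshold.

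SOX2 peaks were present at 39.5% ± 11.5 of the WT-only regions in WT and 24.6% ± 1.52 in CdxKO, and at 28.4% ± 9.27 of the CdxKO-only regions in WT and 49.1% to 50.9% in CdxKO (SD, n = 3; exact p = 0.1 and adjusted p = 0.15 for both). At the shared regions the values were 50.6%, 57.3% and 77.0% in WT and 76.3%, 78.4% and 78.7% in CdxKO, where WT replicate 3 lay within the range of CdxKO (exact p = 0.2). With T/BraKO added to WT, the differences were 18.9, −15.6 and −13.7 points at WT-only, CdxKO-only and shared regions (adjusted p = 0.0714 for each, exact test). In LEF1 libraries of T/BraKO, 15.8%, 44.7% and 39.5% of the WT-only regions and 29.6%, 27.8% and 35.2% of the CdxKO-only regions held a peak among the 20000 best, against 65.7%, 76.3% and 76.7% of the shared regions. The share at shared regions was the highest of the 3 in each T/BraKO library.

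**Figure D5:**
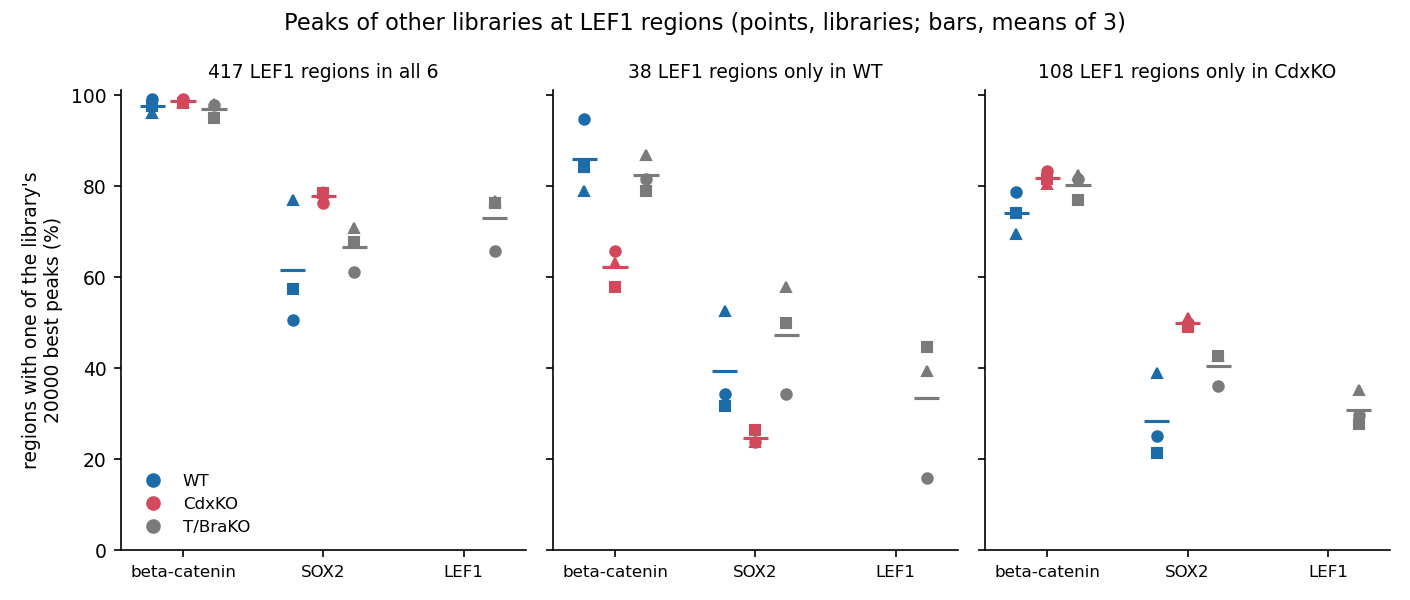
Percentage of the shared (left), WT-only (middle) and CdxKO-only (right) LEF1 regions that hold one of the 20000 best peaks of a β-catenin, SOX2 or T/BraKO LEF1 library, with points for libraries and bars for means of 3. In the middle panel the 3 β-catenin WT points (78.9% to 94.7%) lie above the 3 CdxKO points (57.9% to 65.8%), and in the right panel the SOX2 CdxKO points (49.1% to 50.9%) lie above the WT points.

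Promoter, repeat and base content of the best peaks were compared as well, and no difference passed. Of the 1000 best summits 11.4% ± 2.44 in WT and 12.4% ± 1.29 in CdxKO were within 1000 bp of a transcription start site (SD, n = 3; two-sided exact permutation test, p = 0.6). Soft-masked bases, which mark repeats in the reference, made up 25.6% ± 4.82 and 25.4% ± 1.45 of the windows (exact p = 0.9), and G and C bases 48.4% ± 1.38 and 49.6% ± 0.298 (exact p = 0.4). At 5000 the G and C share was 46.6% ± 0.689 in WT and 47.4% ± 0.0913 in CdxKO, without overlap (exact p = 0.1, adjusted p = 0.6 over 9 tests). Its part in the difference of motif shares was not tested.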

How the data were processed

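Peak lists of LEF1 immunoprecipitates from 3 WT and 3 CdxKO libraries, with 3 T/BraKO libraries and the β-catenin and SOX2 lists for reference, were used. The 12 inputs were not analysed here, and the sources used here do not say which input was the control. Per the paper, the authors trimmed single-end reads of 76 bases with Trim Galore, aligned them to mm10 with BWA, filtered them and called narrow peaks per library with MACS (nf-core chipseq), and the submitters' processing notes name MACS2. In the deposited lists, the ratio is the fold enrichment at the summit over local background. The deposited −log10 p-value and −log10 q-value belong to the same summit. The deposited score was not used.

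Peaks were ranked by −log10 q (the 1000, 5000 and 20000 best), merged at 1 bp of overlap and placed on GRCm38.p6 with GENCODE M21 genes. Both strands were scanned for motifs, up to 100 bp from each summit. Group means were compared with exact permutation tests (6 libraries, smallest p = 0.1; 84 splits of 9 libraries). log2 fold enrichment was tested with limma 3.58.1 (R 4.3.3; trend, no covariate), checked on simulated data, with Benjamini-Hochberg adjustment and a threshold of 0.05. Python 3.11.15, scipy 1.17.1 and samtools 1.23.1 were used. Genes were named by rule: the deleted genes, 16 caudal epiblast, WNT and Hox genes, the 10 best-ranked regions called in all 6 libraries at each length and, at the 20000 best, in 1 genotype only, the 5 smallest limma p in each direction, and list members with a peak among the 5000 best of all 3 libraries of a genotype. The other differing regions, and list genes called at the 1000 or 20000 best only, were named after their values were seen. The counts for 1 gene list are not reported here. The members, gene lists and rules were chosen with earlier results of these data known. Replicate numbers did not pair the libraries: the correlation of same-numbered libraries' deviations over 1300 regions ran from −0.0963 to 0.0498.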

Additional observations from a re-analysis of the deposited data

How the results depend on the processing

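The lists carry no counts, so the depth behind a call is unknown, and lists of WT replicate 3 were shortest. Over the full lists the overlap excess was −0.00101, the CDX difference −0.0866 (WT minus CdxKO) and −0.0197 (with T/BraKO), and the T-box difference 0.00973 points. Full lists gave 1902, 1866 and 5512 shared, WT-only and CdxKO-only regions, and 19518, 1 and 6 genes. With T/BraKO added, the TCF/LEF difference was −0.484 over full lists and −7.51 at 5000 in windows under 50% soft-masked (both lost), and −11.6 at 1000 with 50 bp on either side (gained). Full lists of the other factors, again with T/BraKO added to WT, made the β-catenin and SOX2 differences at WT-only regions 16.7 and 25.4 points. Both were past the threshold. WT-only regions were 24 among the 10000 best peaks.

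Leaving out 1 library gave an overlap excess of −0.00775 to 0.0313, −0.00462 to 0.0172 and −0.00149 to 0.00706 at the 3 lengths when pairs were pooled, which weights the complete genotype 3 to 1. With genotypes weighted equally the excess was above 0 throughout (0.00133 to 0.0169, 0.00116 to 0.00748 and 0.00144 to 0.00303). WT-only regions were 19 to 52, 26 to 92 and 55 to 226, and CdxKO-only regions 33 to 63, 85 to 175 and 146 to 386, with fewer libraries to satisfy. WT-only genes were 17 to 40, 73 to 223 and 346 to 522, and CdxKO-only genes 16 to 50, 90 to 208 and 317 to 483. With T/BraKO added, the CDX difference was 3.33 to 3.93, 1.82 to 2.17 and 0.958 to 1.21, and the TCF/LEF difference −9.53 to −7.09 at 5000 and −4.87 to −3.68 at 20000, some past the threshold and some not. The T-box difference was −0.0667 to 0.533 at 1000 and −0.173 to 0.143 at 5000, the promoter difference at 1000 −2.33 to 0.0667, and that of soft-masked bases −2.26 to 2.56, −0.535 to 1.29 and −0.473 to 0.290. Genes within 50000 bp numbered 303, 763 and 5424 (shared), 39 and 126 (WT-only, 1000 and 5000) and 34 and 144 (CdxKO-only), and ranking by fold enrichment gave 11 CdxKO-only genes at 1000.

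With the replicate block the exact paired sign-flip test cannot go below p = 0.25 and so could make no call (CDX difference of 4.50 points, adjusted exact p = 0.3), and limma with the block made 0 calls. limma made 0 calls in all alternatives run. Causes of these changes were not tested.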
